A study of Mus musculus with 10 samples.

Results

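Insulin-like growth factor 1 (IGF1), its receptors and its binding proteins were examined in mouse tibialis anterior, the muscle along the shin, made mostly of fast fibres. The 8 genes are Igf1, the receptor genes Igf1r and Igf2r, and the binding protein genes Igfbp3, Igfbp4, Igfbp5, Igfbp6 and Igfbp7, taken by symbol from a table of 13492 genes. RNA was sequenced in 5 libraries labelled Lrtm1 KO and 5 labelled Lrtm1 WT, which the series' design text describes as floxed controls. All mice had a C57BL/6 background, were 6 months old and had fasted for 3 h. The libraries came from 3 litters, numbered 108 (2 KO, 1 WT), 110 (1 KO, 2 WT) and 112 (2 KO, 2 WT). The series' design text gives 4 mice per group while the labels give 5, and no source used here names a Cre line or the deleted part of Lrtm1. No label says that each library came from a separate mouse, so the spread behind each p-value may be technical.

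The deposited values are log2 CPM (log2 of read counts scaled to a common library total) after an adjustment by the authors, and the read depth behind them is unknown. Libraries correlated with each other at 0.987 to 0.999 over all genes. The myofibre markers Ckm, Acta1, Myh4, Tnnt3, Actn3 and Pvalb summed to 84162 to 88334 CPM in the libraries labelled KO and 74422 to 88208 CPM in those labelled WT, and 0 of the 6 passed the test described below, with Acta1 (0.15, limma adjusted p = 0.710) and Pvalb (-0.11, limma adjusted p = 0.729) closest to it. The targeted gene did not bear out the genotype labels: Lrtm1 was 1.35-fold higher in the libraries labelled KO (5.97 to 6.21 log2 CPM) than in those labelled WT (5.61 to 5.78). Whether reads from outside the deleted part contribute was not tested. Every direction below is therefore drawn between libraries as labelled.

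IGF1 is a secreted growth factor, made by the liver under growth hormone and also by muscle itself, where it acts on the fibre that makes it and on its neighbours. It binds the receptor tyrosine kinase IGF1R, which signals through insulin receptor substrates, PI3 kinase and AKT towards protein synthesis and away from protein breakdown. IGF2R is the mannose 6-phosphate receptor, which sorts enzymes to lysosomes and clears IGF2 from the cell surface. The binding proteins IGFBP3 to IGFBP6 hold IGFs outside the cell and either withhold or deliver them, while IGFBP7 binds IGFs only weakly.

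In the libraries labelled KO the ligand and both receptor genes had higher values than in those labelled WT, and all 5 binding protein genes had lower mean values. Igf1 was 1.40-fold higher (95% interval 1.14 to 1.72), Igf1r 1.18-fold (1.04 to 1.34) and Igf2r 1.11-fold (1.02 to 1.20). Igfbp4 was 1.19-fold lower, with a log2 difference of -0.26 (95% interval -0.44 to -0.07). None of the 8 passed the test across all genes. In limma with the terms that the authors had removed counted as used, 0 of 8 passed an adjusted p of 0.05, where 0.335% of all tested genes did, 0.27% as higher and 0.0655% as lower. At an unadjusted p of 0.05, 4 of the 8 passed, against 10.1% of all tested genes (1232 of 12223). After libraries were centred along transcript length 2 of the 8 passed, against 1053 of the 12223. The fit with genotype and litter alone, which takes no account of those terms, placed 4 of the 8 past the adjusted threshold, 3 higher and 1 lower, where it called 8.62% of all genes (5.15% higher and 3.48% lower). That fit counts 6 residual degrees of freedom where the values hold 3. The groups did not overlap for 4 of the 8 genes, against 16.2% of all tested genes; KO lay higher for 3 of the 8 (8.56% of all genes) and lower for 1 (7.63%). The median absolute log2 difference was 0.19 over the 8 genes and 0.08 over all tested genes.

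**Figure D1:**
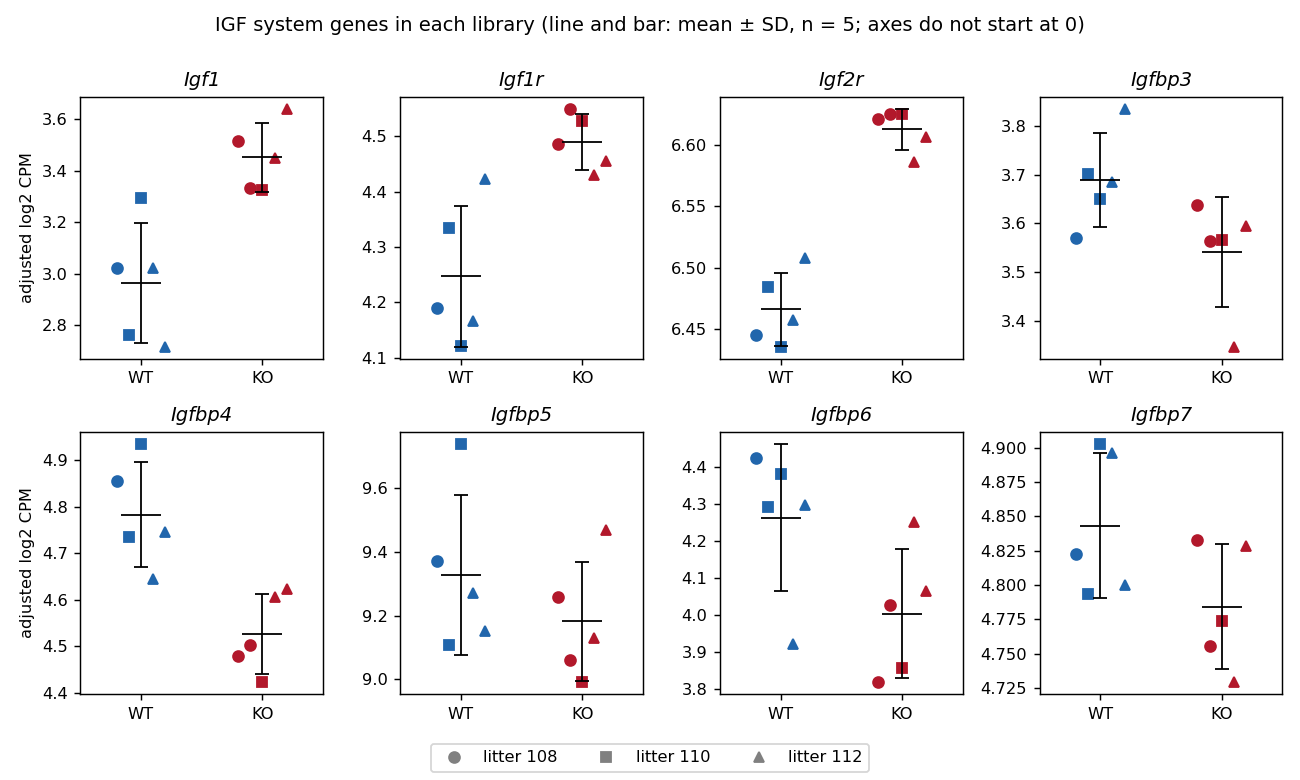
Adjusted log2 CPM of each gene (vertical axes, each with its own range) in the 5 libraries labelled WT (blue) and the 5 labelled KO (red); symbols give the litter, and the line and bar give the mean and SD. For Igf1, Igf1r, Igf2r and Igfbp4 the 2 groups do not overlap, and for the other 4 genes they do.

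The sequences before the start sites of the 4 genes whose groups did not overlap are shown to put the ligand, the receptors and Igfbp4 side by side. Each is the 250 bases upstream of the start that RefSeq gives on GRCm38.p6, written 5′ to 3′ on the gene's own strand, and capitals mark every match to a searched motif. For Igf1 this is chr10:87860861-87861110 on the plus strand, for Igf1r chr7:67952007-67952256 on the plus strand, for Igf2r chr17:12769707-12769956 on the minus strand, and for Igfbp4 chr11:99040994-99041243 on the plus strand. The Igf1 window lies inside the gene body that GENCODE M21 gives for Igf1, whose annotated start is further upstream, so it shows 1 start of that gene and not its outermost one.
Igf1: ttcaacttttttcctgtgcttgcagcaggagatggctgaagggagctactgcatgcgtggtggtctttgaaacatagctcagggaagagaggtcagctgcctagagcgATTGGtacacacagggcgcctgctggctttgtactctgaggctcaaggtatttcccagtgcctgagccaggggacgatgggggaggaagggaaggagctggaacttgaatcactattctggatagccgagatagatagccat
Igf1r: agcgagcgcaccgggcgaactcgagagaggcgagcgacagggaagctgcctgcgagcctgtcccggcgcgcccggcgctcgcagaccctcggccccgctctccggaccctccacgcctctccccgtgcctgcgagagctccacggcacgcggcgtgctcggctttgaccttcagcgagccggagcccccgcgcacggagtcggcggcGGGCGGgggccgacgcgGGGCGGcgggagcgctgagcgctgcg
Igf2r: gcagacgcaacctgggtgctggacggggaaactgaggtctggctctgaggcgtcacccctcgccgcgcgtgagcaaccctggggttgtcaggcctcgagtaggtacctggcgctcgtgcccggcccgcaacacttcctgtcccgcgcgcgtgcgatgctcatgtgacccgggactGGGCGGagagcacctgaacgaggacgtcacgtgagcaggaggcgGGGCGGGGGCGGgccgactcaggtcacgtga
Igfbp4: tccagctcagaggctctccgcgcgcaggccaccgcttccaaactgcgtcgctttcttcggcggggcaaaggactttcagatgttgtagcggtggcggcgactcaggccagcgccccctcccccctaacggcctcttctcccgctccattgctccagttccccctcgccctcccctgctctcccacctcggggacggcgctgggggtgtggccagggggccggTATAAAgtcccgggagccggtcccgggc

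The search covered both strands for 6 motifs: the TATA box TATAAA, the CCAAT box CCAAT, the GC box GGGCGG, the FoxO site GTAAACA, the cyclic AMP response element TGACGTCA and the NR4A site AAAGGTCA. All 8 genes had an entry in the RefSeq table. Igf1 had 1 CCAAT match on the minus strand, which reads as ATTGG above, at -142 to -138 from the start. Igf1r had 2 GC boxes and Igf2r had 3. Igfbp4 had 1 TATA box, which began at -28. Of the 32851 windows in the table, 33.8% held a CCAAT match, 32.7% a GC box and 12.4% a TATA box. The FoxO, cyclic AMP and NR4A letters were in none of the 8 windows, and in 3.17%, 1.55% and 1.34% of all windows. The Igf1 window held 5 CG pairs and 52.8% G and C, near the medians of 6 and 52.4% over all windows, while the Igf1r window held 42 and 77.6%, the Igf2r window 27 and 69.2%, and the Igfbp4 window 22 and 69.2%.

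Igf1 (ENSMUSG00000020053; chr10:87858265-87937042 on the plus strand, GENCODE M21 on GRCm38) encodes the ligand. In the libraries labelled WT it was 3.02, 2.76, 3.29, 3.02 and 2.72 log2 CPM (replicates 1, 3, 4, 5 and 6). In those labelled KO it was 3.51, 3.33, 3.32, 3.45 and 3.64 (replicates 1 to 5). The lowest KO library, replicate 3, lay just above the highest WT library, replicate 4, and the other WT libraries lay further down. The means were 11.0 ± 1.03 CPM (SD, n = 5) in KO and 7.88 ± 1.30 CPM (SD, n = 5) in WT. The log2 difference was 0.49 (SE 0.13), with a limma adjusted p of 0.242, and of 0.038 in the fit with genotype and litter alone. Litter by litter the difference came to 0.40 in 108, 0.30 in 110 and 0.68 in 112. When single libraries were left out it lay between 0.41 and 0.57, and the adjusted p between 0.0533 and 0.426. The adjusted values of the 10 libraries hold 5 independent dimensions. A library left out is thus partly held in the others, and these omissions are not independent checks. Igf1 had the largest log2 difference of the 8 genes. The gene body of the antisense gene Igf1os, which was not analysed here, overlaps that of Igf1 on the opposite strand. No strand setting is stated and overlap of exons was not examined, so whether reads of the 2 genes mix is unknown.

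Igf1r (ENSMUSG00000005533; chr7:67952827-68233668 on the plus strand) encodes the receptor tyrosine kinase that IGF1 activates. It was 4.19, 4.33, 4.12, 4.17 and 4.42 log2 CPM in the WT libraries and 4.49, 4.55, 4.53, 4.43 and 4.45 in the KO libraries, in the same replicate order. The KO libraries lay close together, and WT replicate 6 came just under the lowest of them. The log2 difference was 0.24 (SE 0.08; limma adjusted p = 0.350, and 0.0488 with genotype and litter alone). It was 0.33, 0.30 and 0.15 in litters 108, 110 and 112.

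Igf2r (ENSMUSG00000023830; chr17:12682406-12769664 on the minus strand) encodes the sorting and clearance receptor. It was 6.45, 6.48, 6.44, 6.46 and 6.51 log2 CPM in the WT libraries and 6.62, 6.63, 6.63, 6.59 and 6.61 in the KO libraries. Its spread was the smallest of the 8 genes, with an SD of 0.02 in KO and 0.03 in WT, and the gap between the groups was wider than the range of either KO or WT. The difference itself was small, at 0.15 (SE 0.05; limma adjusted p = 0.355, and 0.0118 with genotype and litter alone). It was 0.18, 0.17 and 0.11 in the litters. Igf2r is imprinted, and the antisense transcript Airn starts within it on the opposite strand. Airn averaged 2.14 log2 CPM and differed by 0.13 (SE 0.14; limma adjusted p = 0.814). No source used here says whether counting used the strand, and overlap of exons was not examined. Whether reads of the 2 genes mix is thus unknown.

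**Figure D2:**
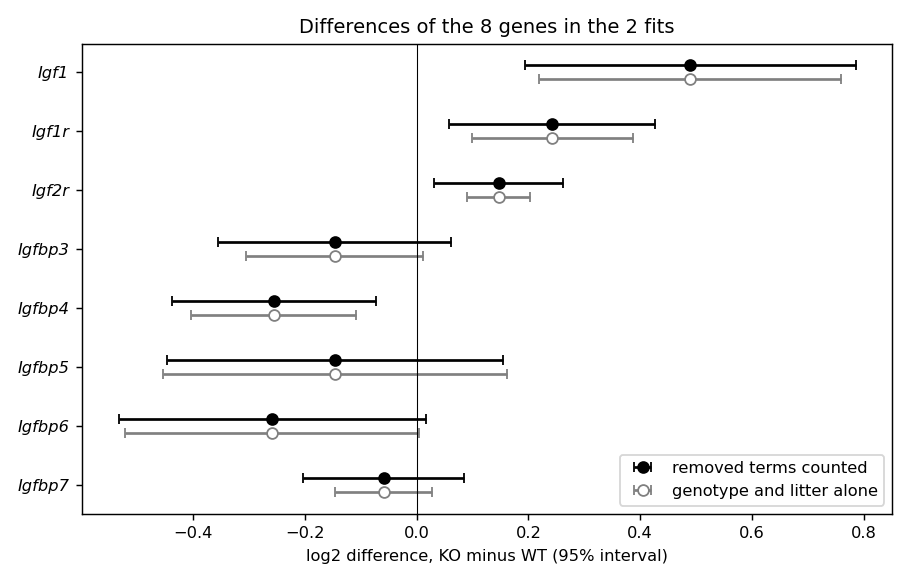
Log2 difference of each gene, libraries labelled KO minus those labelled WT, with its 95% interval in the fit that counts the removed terms (black) and in the fit with genotype and litter alone (grey). The intervals of Igf1, Igf1r, Igf2r and Igfbp4 leave out 0 in both fits before any adjustment over genes, and those of the other 4 genes include it.

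Among the binding proteins, Igfbp4 (ENSMUSG00000017493; chr11:99041244-99054392 on the plus strand), which mainly inhibits IGF action, stood apart between the groups. It was 4.85, 4.73, 4.93, 4.65 and 4.75 log2 CPM in the WT libraries and 4.48, 4.50, 4.42, 4.61 and 4.62 in the KO libraries. Every KO library lay below every WT library, with WT replicate 5 and KO replicate 5 nearest to each other. The limma adjusted p was 0.320 for the log2 difference of -0.26 (SE 0.08), and 0.0445 with genotype and litter alone. By litter it came to -0.36 (108), -0.41 (110) and -0.08 (112).

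Igfbp5 (ENSMUSG00000026185; chr1:72857932-72874884 on the minus strand), which muscle cells make and which binds to matrix as well as to IGFs, was the most abundant of the 8 genes. It was 9.37, 9.11, 9.74, 9.27 and 9.15 log2 CPM in the WT libraries and 9.26, 9.06, 8.99, 9.13 and 9.47 in the KO libraries. The groups overlapped over most of their range. The log2 difference was -0.15 (SE 0.14; limma adjusted p = 0.779), with a 95% interval from -0.45 to 0.15. It was -0.21 and -0.43 in litters 108 and 110 and 0.09 in litter 112. Without WT replicate 4, the highest library, it was -0.05, and without KO replicate 3, the lowest, it was -0.03; the latter also takes litter 110 out of the comparison. Without KO replicate 5, the highest of the libraries labelled KO, it was -0.24.

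Igfbp6 (ENSMUSG00000023046; chr15:102144362-102149511 on the plus strand), which prefers IGF2 over IGF1, was 4.42, 4.29, 4.38, 3.92 and 4.30 log2 CPM in the WT libraries and 3.82, 4.03, 3.86, 4.25 and 4.06 in the KO libraries. WT replicate 5 lay among the KO libraries, and KO replicate 4 came close to the other WT libraries. The log2 difference was -0.26 (SE 0.12; limma adjusted p = 0.528), with values of -0.50 and -0.48 in litters 108 and 110 and 0.05 in litter 112. WT replicate 5 and KO replicate 4 both belong to litter 112. The authors' adjustment took litter out, so deviations from the group means balance within a litter and these libraries are not independent. With single libraries left out the difference ran from -0.37 without WT replicate 5 to -0.17 without KO replicate 3 and -0.16 without WT replicate 1; the last 2 omissions each take a litter out of the comparison.

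Igfbp3 (ENSMUSG00000020427; chr11:7206086-7213923 on the minus strand), the main carrier of IGFs in blood, was 3.57, 3.70, 3.65, 3.68 and 3.84 log2 CPM in the WT libraries and 3.64, 3.56, 3.57, 3.35 and 3.59 in the KO libraries. The log2 difference was -0.15 (SE 0.09; limma adjusted p = 0.658), and without KO replicate 4 it was -0.08. WT replicate 1 lay below KO replicates 1 and 5, and the other WT libraries lay above every KO library. By litter it came to 0.03 (108), -0.11 (110) and -0.29 (112).

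Igfbp7 (ENSMUSG00000036256; chr5:77349240-77408041 on the minus strand), a matrix protein of vessel walls, was within 4.79 to 4.90 log2 CPM in WT and 4.73 to 4.83 in KO. The log2 difference was -0.06 (SE 0.07; limma adjusted p = 0.815), and its 95% interval of -0.20 to 0.09 covers changes up to 1.15-fold lower. The gene bodies of Igfbp7 and of Polr2b, a subunit gene of RNA polymerase II on the opposite strand, overlap. So do those of Igfbp7 and the antisense gene Gm34648, which was not analysed here. Overlap of exons was not examined, so whether reads of these genes mix is unknown. Polr2b differed by -0.04 (SE 0.06, limma adjusted p = 0.858).

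**Figure D3:**
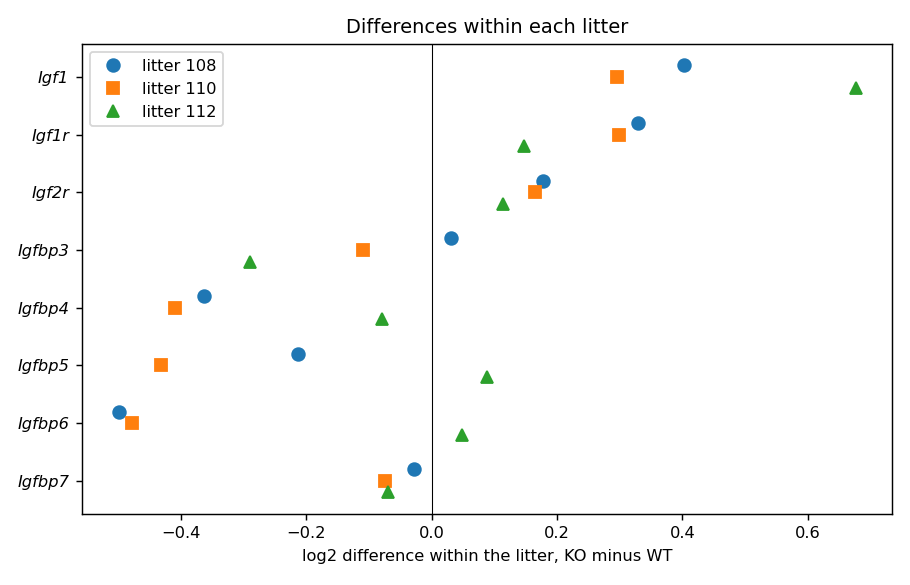
Log2 difference of each gene within each of the 3 litters, libraries labelled KO minus those labelled WT. Igf1, Igf1r and Igf2r are above 0 and Igfbp4 and Igfbp7 below 0 in every litter, while Igfbp3, Igfbp5 and Igfbp6 have litters on both sides of 0.

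Direction was the same in all 3 litters for 5 of the 8 genes, and for 47.9% of all tested genes. These litter values come from the adjusted data, with the authors' terms already taken out, so the litters are not independent checks. Litter 112 gave the largest difference for Igf1 (0.68) and the smallest for Igf1r, Igf2r and Igfbp4. Summed over the 5 binding protein genes, a KO library held 584 to 790 CPM and a WT library 639 to 949 CPM, and Igfbp5 made up 86.4% to 90.1% of this sum in every library. The other 4 binding proteins summed to 75.2 to 81.9 CPM in KO and 82.8 to 93.9 CPM in WT. This smaller sum did not overlap between the groups; it was formed after the values were seen and was not tested.

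To compare genes with each other, CPM was divided by the length of the longest coding transcript in GENCODE M21. On this CPM per kb scale Igfbp5 stood highest at 103, with libraries from 84.8 to 142. Igfbp7 (23.5), Igfbp6 (16.0) and Igf2r (10.5) followed, and none of these overlapped its neighbour over the libraries. Igfbp4 (6.62) and Igfbp3 (5.08) overlapped each other, as did Igf1r (1.82) and Igf1 (1.34), so the order within these pairs was not resolved. The annotated coding transcripts of Igf1 run from 510 to 7052 bases and those of Igfbp4 from 489 to 3831 bases. With the median transcript in place of the longest, Igf1 came to 6.89 and Igfbp4 to 34.2 CPM per kb, so their rank depends on which transcripts were expressed. In plain CPM Igf2r averaged 93.1, above Igfbp7 (28.1) and Igfbp6 (17.7), so the order of these genes depends on the division by length. Whether that division suits oligo-dT primed libraries was not tested.

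The 3 genes with higher values in the libraries labelled KO also had the longest transcripts of the 8, at 7052 bases for Igf1, 11409 for Igf1r and 8887 for Igf2r. When all tested genes were put in 5 classes by length, the class medians of the log2 difference went from -0.04 to 0.05. Among the longest transcripts 66.2% of genes had a difference above 0, against 35.8% among the shortest. When each library was centred along transcript length, a setting chosen after seeing the data, the log2 difference was 0.44 for Igf1, 0.17 for Igf1r, 0.09 for Igf2r and -0.26 for Igfbp4. Igf2r and Igfbp7, which went from -0.06 to -0.02, moved by more than 1.5 times, and the other 6 did not. In this setting 2 of the 8 genes, in place of 4, had an unadjusted p under 0.05: Igf1 and Igfbp4 did, while Igf1r (limma unadjusted p = 0.0621) and Igf2r (0.112) did not. Of all 12223 tested genes 1053 did, in place of 1232. Igfbp5, at 6006 bases, is in the longest class too and had a difference below 0.

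**Figure D4:**
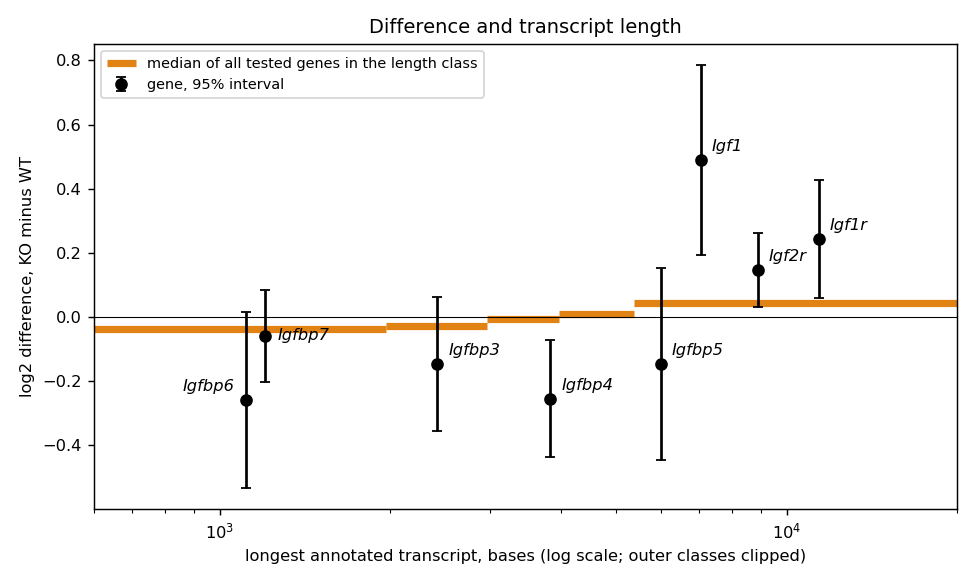
Log2 difference of each gene with its 95% interval (vertical axis) against the length of its longest annotated transcript in bases (log scale), and the median difference of all tested genes in 5 length classes (orange). Igf1, Igf1r and Igf2r lie at the long end and above the class median of 0.05, and Igfbp5, in the same class, lies below it.

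Cells between the muscle fibres also make IGF1 and its binding proteins, and markers of those cells are given beside them. In bulk tissue, fewer cells of a type and less RNA per cell cannot be told apart. Of 7 fibro-adipogenic progenitor markers, the connective tissue cells of muscle, 0 passed the threshold and 6 lay below 0 (median log2 difference -0.11); they summed to 473 to 527 CPM in KO and 491 to 561 CPM in WT. The leading pair by p was Dpt (-0.14, adjusted p = 0.544) and Dcn (-0.15, adjusted p = 0.550). The 5 tendon markers all lay below 0 (median -0.23, sums of 152 to 204 CPM in KO and 157 to 245 CPM in WT), led by Fmod (-0.36, adjusted p = 0.462) and Comp (-0.41, adjusted p = 0.530). Neither sum separated the groups.

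The sum of the adipocyte markers did separate the groups. All 5 were in the table and 4 were tested, all below 0. The 5 summed to 8.59 to 12.9 CPM in KO and 14.7 to 23.8 CPM in WT. Cidec (-1.20) and Cfd (-0.62) led the list, with limma adjusted p of 0.121 and 0.123. On their own 2 of the 4 tested, Cidec and Cfd, separated the groups, as did 16.2% of all tested genes. The 4 satellite cell markers in the table were led by Chodl (-0.20, limma adjusted p = 0.581) and Myf5 (-0.21, limma adjusted p = 0.798). Their sum, 14.8 to 15.9 CPM in KO and 16.2 to 17.8 CPM in WT, also did not overlap. Taken singly, 0 of these 4 separated the groups, and 0 had a limma unadjusted p under 0.05. Satellite cells are the stem cells of muscle. Sums overlapped for endothelial markers (246 to 251 CPM in KO and 240 to 253 CPM in WT), for smooth muscle and pericyte markers (463 to 487 and 468 to 494 CPM), for macrophage markers (48.2 to 50.8 and 49.5 to 52.4 CPM) and for erythroid markers (151 to 169 and 156 to 180 CPM). The pairs of smallest p in these lists ran from -0.23 for Adgre1 to 0.15 for Kdr, all with an adjusted p of at least 0.400. Of the 50 markers tested over the lists given here, 0 passed the threshold in limma, 6 had an unadjusted p under 0.05, 4 of them the adipocyte markers, and 3, all adipocyte markers, passed with genotype and litter alone. The part of these cells in the values of the binding proteins was not tested.

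Beyond the 8 genes, 12 others of the IGF system were tested, and 0 of 12 passed the threshold in limma (3 at an unadjusted p of 0.05, and 3 adjusted with genotype and litter alone, all higher). Of these, 9 lay above 0 and the median log2 difference was 0.13, against -0.00409 over all tested genes. Htra4, a secreted serine protease of a family that cleaves binding proteins, was 2.14 to 2.71 log2 CPM in KO and 1.01 to 1.86 in WT, a log2 difference of 0.96 (SE 0.20; limma adjusted p = 0.0881). Without WT replicate 4 its limma adjusted p was 0.039, and with any other single library left out it stayed above 0.05. Igfals, which encodes the acid-labile subunit of the IGF complex in blood, was 1.86 to 2.06 in KO and 1.47 to 1.84 in WT (difference 0.34, adjusted p = 0.427). Igf2, named here after its values were seen, was 4.14 to 4.21 log2 CPM in KO and 3.93 to 4.09 in WT (difference 0.14, adjusted p = 0.551), and the growth hormone receptor gene Ghr, named likewise, differed by -0.00431 (adjusted p = 0.988). Igfbp1 and Igfbp2 were not analysed here.

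Other secreted proteins also carry an IGFBP domain. Of 6 tested, 0 passed in limma (2 at an unadjusted p of 0.05, and 2 adjusted with genotype and litter alone, both lower), 4 lay below 0 and 2 above, and the median was -0.12. Ccn5, a matricellular protein, was 0.43 to 0.84 log2 CPM in KO and 1.02 to 1.41 in WT (difference -0.65, adjusted p = 0.243), and Kazald1 was 1.82 to 1.90 in KO and 2.04 to 2.32 in WT (difference -0.31, adjusted p = 0.400).

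Below the receptor, 1 of 18 tested genes of proximal signalling passed in limma, as higher, and 0 as lower (4 at an unadjusted p of 0.05, and 3 higher and 1 lower adjusted with genotype and litter alone); the median log2 difference was 0.06. That gene was Irs2, an adaptor phosphorylated by both the IGF1 and the insulin receptor, at 5.23 to 5.87 log2 CPM in KO and 4.05 to 4.56 in WT (difference 1.30, SE 0.15; adjusted p = 0.00665). Its adjusted p was 0.0516 without WT replicate 5, 0.231 without a variance trend, 0.236 with a robust variance prior and 0.358 on the CPM scale. In the PI3 kinase, AKT and mTORC1 list 0 of 25 passed in limma (5 at an unadjusted p of 0.05, and 1 higher and 2 lower adjusted with genotype and litter alone). Of the 25, 20 lay above 0, with a median of 0.05. By length class, 35.8% (shortest) to 66.2% (longest) of all tested genes lay above 0, with medians of -0.04 to 0.05. Transcript length was not set beside this list. Pik3r1, the regulatory subunit p85 alpha, differed by -0.29 (adjusted p = 0.253) and Rps6kb1, the S6 kinase, by -0.16 (adjusted p = 0.394). These lists share genes with insulin signalling and were written with earlier results of these data known.

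IGF2R carries lysosomal enzymes, so genes of mannose 6-phosphate sorting were set beside it. Of 19 tested, 0 passed in limma (1 at an unadjusted p of 0.05, and 1 higher adjusted with genotype and litter alone), 11 lay above 0 and the median log2 difference was 0.00487. Gnptab, the enzyme that starts the mannose 6-phosphate tag, was 4.23 to 4.42 log2 CPM in KO and 3.94 to 4.18 in WT (difference 0.23, adjusted p = 0.362), and Sort1, another sorting receptor, differed by 0.09 (adjusted p = 0.704). Thus the median of the sorting genes was near 0, while Igf2r differed by 0.15 without passing the threshold (limma adjusted p = 0.355). Centred along transcript length, Igf2r differed by 0.09. Gnptab, within the list, differed by more than Igf2r.

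**Figure D5:**
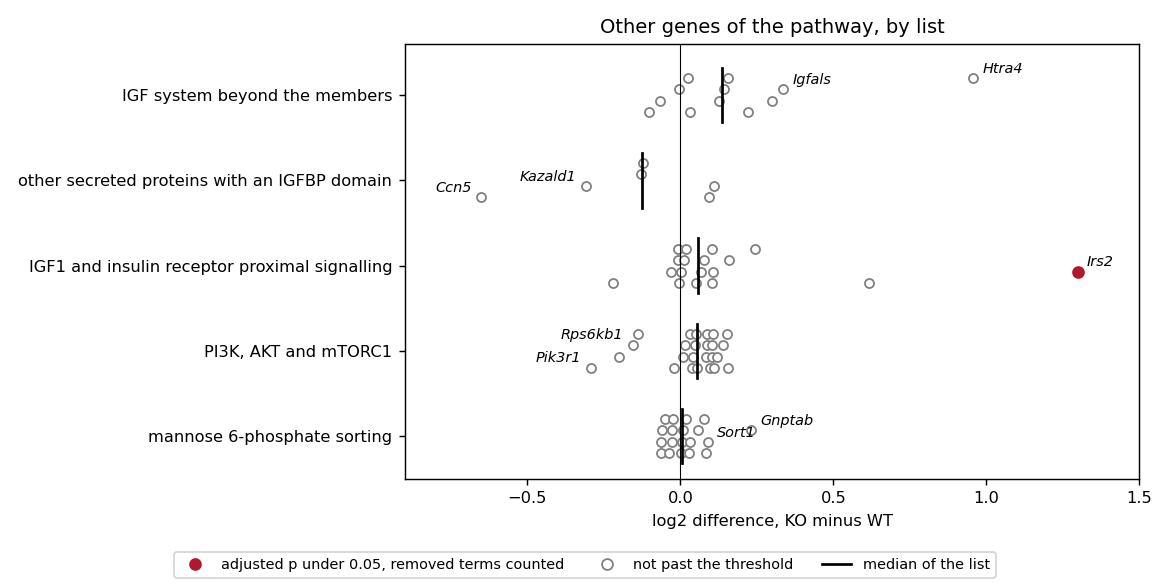
Log2 difference of each tested gene, libraries labelled KO minus those labelled WT, in the 5 lists around the 8 genes; bars mark each list's median, and names mark the genes described in the text. Irs2 at 1.30 is the one gene past the threshold, and the list medians lie between -0.12 and 0.13.

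Genes with a pattern like that of the 8 were looked for among 10876 genes with a mean of at least 1 log2 CPM, by Pearson's r over the 10 libraries, as a description. Igf1 was most like Tubgcp4 (r = 0.999, rho = 0.988), Tceal5 (r = 0.997, rho = 0.952) and Cmtm6 (r = 0.997, rho = 0.952). Igf1r was most like Shisa4, Erbb3 and Gm16008 (r from 0.994 to 0.995), Igf2r like Utrn, Il6st and Myo18b (r = 0.998 each), and Igfbp4 like Anxa1, Rab1b and Fkbp7 (r from 0.993 to 0.996). Igfbp3 was most like E4f1, Gja1 and P2ry2, Igfbp5 like Pcna, Adamts15 and Lrp10, Igfbp6 like Lars, Emilin2 and Ntn1, and Igfbp7 like Mrpl49, Appbp2 and Sprtn, with r of at least 0.992. The adjusted values of the 10 libraries hold 5 independent dimensions, and between 131 and 402 genes reached an r of 0.9 with each of the 8, so high values of r are common here.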

How the data were processed

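Libraries were stranded and oligo-dT primed, from TRIzol-extracted RNA, per the labels' protocols. The submitters' processing notes name fastp, kallisto and limma without versions. No source used here gives the genome build, annotation or strand setting. The authors deposited adjusted log2 CPM for 13492 genes, with no read totals. Once genotype was fitted, the largest litter difference in any deposited log2 value was 6.7e-14, so litter had been removed. Of 6 residual dimensions 3 remained, so 3 further terms, which no source used here names, had been removed as well, and SDs leave out what was removed.

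Groups came from the titles. The test took the 12223 genes whose mean log2 CPM was 0 or above (1269 were left out), among them all 8. The test was limma 3.58.1 in R 4.3.3 (eBayes with a variance trend, two-sided, Benjamini-Hochberg over all tested genes, threshold 0.05), with genotype, litter and the 3 removed terms in the fit. Its standard errors are lower bounds, because overlap of those terms with genotype cannot be recovered. A permutation test was not used, since values adjusted with genotype kept are not exchangeable. From each list the text names up to 4 genes past the threshold, or the 2 of smallest p, and for each of the 8 genes the 3 of highest r. Alternatives covered the removed terms, litter, variance prior, level minimum, scaling, CPM scale, replicate block, length and each library left out. The members and lists were chosen with earlier results of these data known. A further marker list is not reported here.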

Additional observations from a re-analysis of the deposited data

Results flagged for a closer look

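Each of the 16 combinations of gene and group was searched for a library apart. A library was called so where its gap to the nearest other library exceeded 0.71 of the group's range. It happened for 2. Chance does this in about 1 in 20 groups of independent, normally distributed values. The adjusted values are not independent, so the 2 cases cannot be read against that rate. For Igfbp3, KO replicate 4 lay lowest of the libraries labelled KO, at 3.35 log2 CPM, and its gap was 0.74 of the range. For Igfbp6, WT replicate 5 lay lowest of the libraries labelled WT, at 3.92 log2 CPM, and its gap was also 0.74 of the range. Without the first library the Igfbp3 log2 difference was -0.08 in place of -0.15, and without the second the Igfbp6 difference was -0.37 in place of -0.26 (limma adjusted p = 0.640 and 0.141). The Igfbp6 difference was closer to 0, at -0.17 without KO replicate 3 and -0.16 without WT replicate 1. Both libraries come from litter 112.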

How the results depend on the processing

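All 8 genes kept the direction of their difference in the 22 alternatives run, and in 20 of these none of them passed the threshold. With genotype and litter alone 4 passed (Igf1, Igf1r, Igf2r and Igfbp4), and 1054 of all tested genes in place of 41; that fit counts degrees of freedom the values no longer hold. With the replicate number as a block in place of litter 1 passed, Igf1r (limma adjusted p = 0.0431), and 128 of all genes. No label says that same-numbered libraries are pairs, and number 4 joins 2 litters. Same-numbered libraries deviated from their group means with correlations from -0.85 to 0.45 over genes. Removal of litter ties the deviations within a litter to each other, so these correlations cannot decide whether the numbers pair libraries. Over all genes the count was 1 without a variance trend, 24 after quantile normalization, 0 on the CPM scale (1085 at an unadjusted p of 0.05) and 8 to 60 with 1 library left out. It was 8 without WT replicate 1 and 11 without KO replicate 3, each of which takes a litter out of the comparison, 17 without WT replicate 6 and 20 without WT replicate 5. The causes were not tested. For every gene, a library left out is still partly held in the adjusted values of the others, so these omissions are not independent checks. No filter on low values, a higher minimum, median centring and a robust prior changed no call among the 8 genes. The depth per library is unknown, so no counting error is given.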

Other observations

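Ligand and binding protein transcripts were set against each other within each library. Igf1 amounted to 1.58% to 1.71% of the summed CPM of the 5 binding protein genes in the libraries labelled KO and to 0.999% to 1.16% in those labelled WT, with means of 1.66% ± 0.05 and 1.07% ± 0.06 (SD, n = 5 each). The share was tighter within a group than either of its parts: Igf1 spanned 10.01 to 12.48 CPM in KO and 6.57 to 9.80 CPM in WT, and Igfbp5, most of the sum, 509 to 708 CPM and 552 to 855 CPM. In each group the library with the most Igf1 (KO replicate 5, WT replicate 4) also had the most Igfbp5. Of 10876 genes, 279 reached an r of 0.9 with Igf1 and 136 with Igfbp5, so joint movement is not particular to this pair. Shares of other gene pairs were not compared. Against the other 4 binding proteins alone, Igf1 amounted to 12.9% to 15.2% in KO and 7.41% to 10.4% in WT. These ratios were formed after the values were seen, and were not tested.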
